A study of Mus musculus with 183 samples.

Results

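The response of mouse embryonic stem cells (mESCs) to 4-hydroxytamoxifen (4OHT) treatment of a Skiv2l conditional knockout line that also lacks AVEN was described at steady state, that is, in RNA from cells given no transcription inhibitor. The libraries were chosen by their labels alone: the 3 mock libraries of clone 7E at day 4 and its 3 mock libraries at day 0. These 6 libraries are among 47 in the count table of a half-life experiment and among 183 samples of the series as a whole. All expressed genes were examined, once relative to library size and once relative to External RNA Controls Consortium (ERCC) spike-ins, which are synthetic RNAs added in equal volume to each lysate.

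SKIV2L is the helicase of the cytoplasmic SKI complex, in which TTC37 and WDR61 are its partners, and it feeds RNA into the exosome for degradation from the 3′ end. The complex is known for clearing mRNAs on which ribosomes have stalled and the fragments left when such mRNAs are cut. AVEN, first known as an inhibitor of apoptosis, was studied as a partner of this pathway, and the comparison asks how the transcriptome of cells without AVEN stands 4 days after deletion of Skiv2l was induced.

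Clone 7E carried CreERT2, a Cre recombinase activated by 4OHT, and the biotin ligase BirA at Rosa26, a 3xFLAG-Avi tag on Skiv2l, disrupted Aven alleles (Aven-/-) and loxP sites around Skiv2l exons 11 to 17 (Skiv2l fl/fl, as the study's methods give it). Day 0 cells received DMSO for 6 h, and day 4 cells received the same vehicle control after 4 days in 0.1 uM 4OHT. Cells of both days grew on gelatin in serum with leukemia inhibitory factor. The line is a single clone, and the comparison holds no 4OHT-treated cells without the floxed allele, so loss of Skiv2l, 4OHT itself and time in culture cannot be told apart. Per the study's methods the replicates were technical, so p-values measure only the spread between these samples. In bulk RNA, fewer cells of a type and less RNA per cell cannot be told apart.

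The alleles of clone 7E were made with the following Cas9 guides, shown because they mark what Cre removes and what was cut from Aven. Each is written 5′ to 3′ with the adjoining protospacer adjacent motif (PAM) in capitals. The Skiv2l sites lie in introns 10 and 17, at chr17:34846312-34846331 and chr17:34844195-34844214 on the minus strand of GRCm38. The Aven sites lie in exons 3 and 6, at chr2:112625181-112625200 and chr2:112630912-112630931 on the plus strand.
Skiv2l intron 10: gacctgggctaacttaggaaAGG
Skiv2l intron 17: tctccccttaaccttaaatgGGG
Aven exon 3: gctgaggagaaagaatgggaTGG
Aven exon 6: agagtgcctgaagcaaatgcTGG
The stretch from one Skiv2l guide to the other spans 2137 bases, and exons 11 to 17 hold 907 of the 3951 exonic bases, or 23.0%, of the 28-exon transcript. The stretch from one Aven guide to the other spans 5751 bases. Exons 3 to 6, counted whole, hold 90.8% of the exonic bases of Aven. The guides lie inside exons 3 and 6, and parts of these exons fall outside that stretch, so 90.8% is not the share deleted. The exonic share between the Aven guides was not computed.

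Each library held 28369645 to 31175268 counts on genes, and 16333 genes had enough counts to be tested. A gene could pass this filter through a single day: 1092 tested genes had under 10 counts in at least 1 day 0 library, and 315 of them were called higher, so the lists most touched are also counted without such members, a choice made after seeing the data; in the other lists at most 1 call higher rests on them. The first principal component held 74.6% of the variance and separated the days. Libraries of the same day differed by 4.75 to 5.69 times the sampling noise per gene (chi-square per gene), except for the third day 4 library. That library differed by 12.2 from each of the others of its day. None was a second copy of another. Levels below are CPM, the counts-per-million measure, with library-size scaling unless stated, and a call is an adjusted p below 0.05 in edgeR's quasi-likelihood test across all tested genes.

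Skiv2l (ENSMUSG00000040356.16, chr17:34839228-34850210) had 33.1, 35.5 and 30.9 CPM at day 0 and 13.9, 13.3 and 12.6 CPM at day 4. The groups did not overlap. Skiv2l fell by 1.32 on the log2 scale (SE 0.07, adjusted p = 7.53e-13), among the 12 largest falls of all genes at 10 CPM or more. Skiv2l overlaps Dxo on the opposite strand, and reads in the overlap cannot be told apart unless the counting used strand, which the sources used here do not state. Clone 7E held less Skiv2l mRNA than the Aven-intact Skiv2l fl/fl clone 5F before treatment: with all 12 mock libraries scaled together, clone 5F had 143 to 146 CPM at day 0. In the libraries labelled day 4 of clone 5F, Skiv2l stood at 132 to 153 CPM, which overlaps its day 0. By this measure those libraries do not show the deletion, and they are named by their label. Per the study's methods, RT-qPCR or western blot served to check loxP recombination after 4OHT, without these libraries being named.

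Aven (ENSMUSG00000003604.14, chr2:112492964-112634573) had 1.93, 2.94 and 1.99 CPM at day 0 and 1.56, 1.32 and 2.06 CPM at day 4 in clone 7E. It was low on both days and was not called (log2 change -0.47, SE 0.21, adjusted p = 0.0771). Without the third library of day 4, it was called lower (-0.67). Clone 5F had 32.1 to 35.4 CPM of Aven over its 6 mock libraries.

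The yield of gene counts relative to spike-ins fell steeply in clone 7E. The 3 day 0 libraries gave 319.2 ± 5.61 gene counts per ERCC count (SD, n = 3) and the 3 day 4 libraries 153.2 ± 2.36, which is 48% of day 0. The groups did not overlap, and the exact two-sided permutation test gave p = 0.1, the smallest that 3 against 3 allows. The libraries of the same line taken 120, 240 and 360 min into actinomycin D, which blocks transcription, gave day 4 ratios of 51.3%, 52% and 48.4% of day 0, again without overlap at each time (p = 0.1 each). Clone 5F mock libraries stood at 348.9 ± 14.6 and 341.3 ± 15.3, or 97.8% of day 0 (n = 3 each, exact permutation p = 0.6). Cells were seeded at an equal number per well, but cell numbers at lysis are not given in the sources used here.

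**Figure D1:**
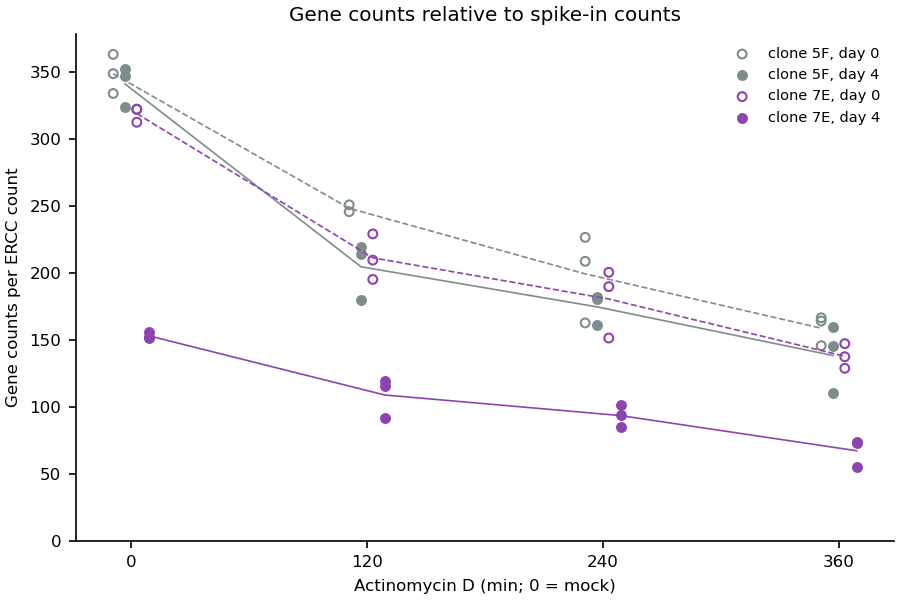
Gene counts per ERCC count (vertical axis, from 0) against minutes of actinomycin D (0 is mock), with 1 point per library, open at day 0 and filled at day 4, and lines through group means. The day 4 libraries of clone 7E lie at about 48% to 52% of their day 0 counterparts at all 4 times, while the mock libraries of clone 5F overlap.

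The scaling decided the direction of most genes called higher. Relative to library size, 3394 genes (20.8% of those tested) were higher at day 4 and 3158 (19.3%) were lower, with a median log2 change of -0.01 over all genes. Relative to the spike-ins, 258 genes (1.58%) were higher and 14716 (90.1%) were lower, with a median of -1.1. All 258 genes higher by the spike-ins were also higher by library size, and all 3158 genes lower by library size were also lower by the spike-ins. Of the 3394 genes higher by library size, 2744 had a log2 change below 0 by the spike-ins and 2339 were called lower by them. From here on, "rose" and "fell" describe a gene relative to the median gene, by library-size scaling, and the log2 change by ERCC scaling is given where it matters. Counts of list members that rose or fell are to be read beside the 20.8% and 19.3% of all genes.

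Most shifts were small: the median absolute log2 change of the called genes was 0.38, and 68.2% of them changed by less than 1.5-fold. Changes over 2-fold numbered 752 genes higher and 210 lower. Genes that passed the filter through 1 day only are among those eligible, 315 of them among all calls higher. The counts over 2-fold were not remade without them, so no direction is read from these counts. Scaling by total gene counts instead gave 2909 genes higher and 3953 lower, so the balance of rises and falls depends on the scaling even without spike-ins. The 3 day 4 values lay all above or all below the 3 day 0 values in 48.7% of genes, 4010 upward and 3942 downward, against the 20.8% and 19.3% called.

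**Figure D2:**
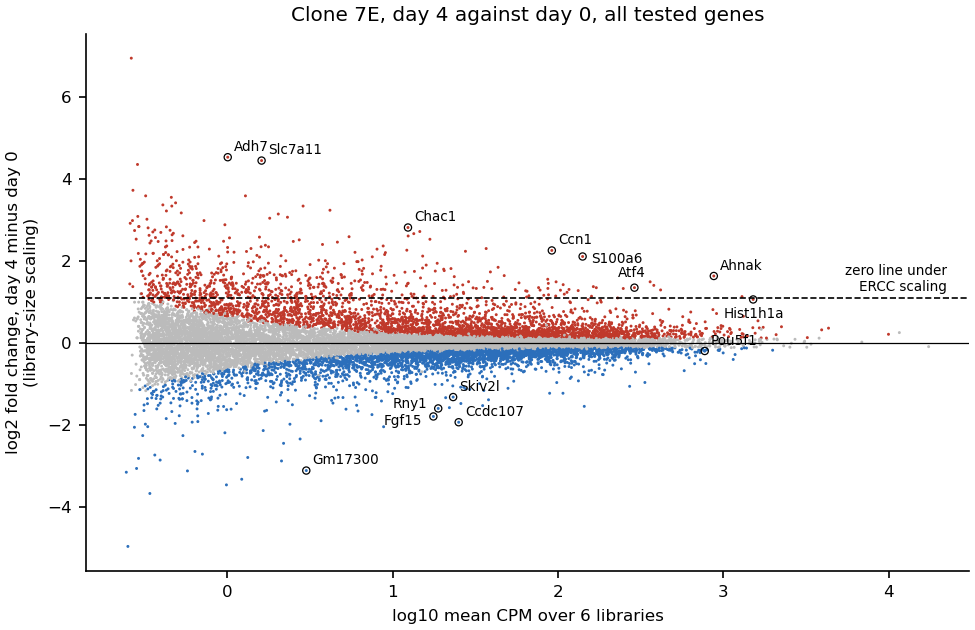
Log2 fold change (day 4 minus day 0, library-size scaling) against log10 mean CPM for the 16333 tested genes, red where called higher, blue where called lower and gray otherwise. The dashed line is where zero falls under ERCC scaling; Chac1, Ccn1, S100a6, Ahnak and Atf4 lie above it and Hist1h1a just below it.

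Among genes at 10 CPM or more, the 12 largest rises were in genes of varied function. Chac1 (ENSMUSG00000027313.3, chr2:119351229-119354381), which encodes a glutathione-degrading enzyme, had 2.82, 2.60 and 3.80 CPM at day 0 and 21.7, 22.2 and 21.0 CPM at day 4. It rose the most, with a log2 change of 2.82 (SE 0.11, adjusted p = 8.92e-16), and stayed higher by ERCC scaling (1.72). Atf3, a stress-induced transcription factor of the ATF family, had 3.05, 3.74 and 3.66 CPM and then 23.5, 20.9 and 19.6 CPM (log2 change 2.61, SE 0.10, adjusted p = 1.79e-15). Both were at low levels in all day 0 libraries, and each day 4 library stood well above them.

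The other 10 included the histone gene Hist1h2aa (2.72). The integrin subunit Itga8 went from 3.46, 4.04 and 3.42 CPM to 22.9, 23.9 and 22.6 CPM (log2 change 2.67, SE 0.09, adjusted p = 2.48e-16). The calcium-binding protein gene S100a6 (chr3:90612882-90624181) went from 54.7, 52.1 and 52.1 CPM to 240, 228 and 218 CPM (2.11, SE 0.05, adjusted p = 5.22e-19), and had the highest level at day 4 of the 12. The remaining genes were the lipase Pla2g7 (2.53), the FGF-binding protein Fgfbp1 (2.30), Anxa1 (2.26), a phospholipid-binding annexin, the matricellular gene Ccn1 (2.26), the ubiquitin ligase Rnf128 (2.24), the serpin Serpinb9b (2.12) and the ligand Wnt7b (1.94). The groups did not overlap for any of them, as the rule of choice required, and each was also higher by ERCC scaling, from 0.85 for Wnt7b to 1.72 for Chac1.

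The 12 largest falls at 10 CPM or more included 4 short noncoding RNAs and the growth factor genes Fgf15 and Fgf17. Fgf15 (chr7:144896531-144900953), a fibroblast growth factor, had 27.4, 26.7 and 28.1 CPM at day 0 and 7.13, 7.37 and 9.08 CPM at day 4 (log2 change -1.80, SE 0.09, adjusted p = 4.32e-14). Another member of that family, Fgf17, went from 36.0, 39.2 and 38.9 CPM to 11.4, 13.3 and 16.0 CPM (-1.48). Lower too were the transcription factors Sox21 (-1.39) and Nfatc4 (-1.34), the D-type cyclin Ccnd2 (-1.23), the activin subunit Inhbb (-1.23) and Skiv2l itself. Ccdc107 (chr4:43492900-43495921) had the largest fall, from 34.6, 50.3 and 34.4 CPM to 9.53, 10.2 and 11.3 CPM (-1.94, SE 0.11, adjusted p = 1.85e-12). Its locus overlaps Rmrp, the RNA of ribonuclease MRP, on the opposite strand, so the reads of the pair may not be told apart.

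**Figure D3:**
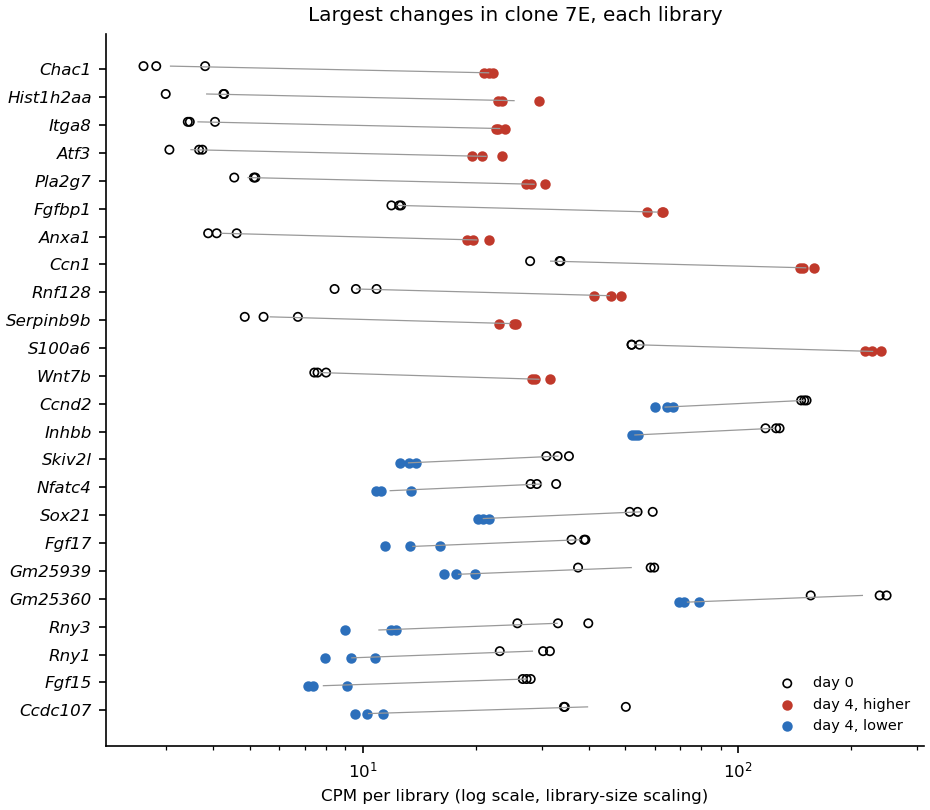
CPM in each library on a log axis for the 12 largest rises and the 12 largest falls among genes at 10 CPM or more, open for day 0 and colored for day 4, with a line joining the means. No gene shown has a day 4 value within its day 0 range, a condition of the choice; in Rny1, Rny3, Gm25360 and Gm25939 one day 0 library lies well below the other two.

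The short RNAs among these falls were Rny1 and Rny3, the Y RNAs that bind the protein RO60, and the snRNA genes Gm25360 (chr1:72226240-72226430) and Gm25939 (chr1:72255008-72255198). The sequences of the Y RNAs show how short the counted features are and are printed 5′ to 3′ along the RNA, from GRCm38.p6, at chr6:47788069-47788180 (minus strand, 112 bases) and chr6:47781624-47781725 (plus strand, 102 bases).
Rny1: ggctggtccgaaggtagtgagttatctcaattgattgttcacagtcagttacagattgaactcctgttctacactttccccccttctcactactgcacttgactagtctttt
Rny3: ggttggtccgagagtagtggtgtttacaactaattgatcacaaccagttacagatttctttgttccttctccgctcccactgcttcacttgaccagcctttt
Rny1 had 30.3, 31.6 and 23.2 CPM at day 0 and 10.8, 9.32 and 7.94 CPM at day 4 (log2 change -1.60, SE 0.11, adjusted p = 2.15e-11). Rny3 had 33.1, 39.9 and 25.9 CPM and then 12.3, 11.9 and 8.98 CPM (-1.58). For both, the third library of day 0 was the lowest of its group and the groups still did not overlap. Gm25360 (-1.55) and Gm25939 (-1.53) are each 191 bases long, and since only uniquely placed reads were counted, the level of such multi-copy RNAs is uncertain.

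Falls were common among the shortest genes. Of 245 tested genes with under 300 exonic bases, 3 rose and 82 (33.5%) fell, against 20.8% and 19.3% of all genes, and their median log2 change was -0.32. This did not extend to the next length class, from 300 bases to under 1000, in which 115 of 1022 genes rose (11.3%) and 66 fell (6.5%). Among genes of 8000 exonic bases or more, 727 of 2512 rose and 502 fell. By annotated class, 0 of 31 snRNA genes rose and 17 fell, and 1 of 117 snoRNA genes rose and 47 fell. In the list of small nucleolar RNAs, which guide chemical modification of ribosomal and spliceosomal RNA, 1 of 56 tested members rose and 16 fell. Without those under 10 counts in a library of either day, 1 of 47 rose and 14 fell. Snord13 stood at -1.33, Snora23 at -1.75 and Snora41 at -1.22. The third day 0 library was the lowest of its group for Snord13, Snora23 and Snora41, as it was for the Y RNAs.

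Below 10 CPM and at or above 1 CPM the largest rises rested on few counts. Adh7, a retinol and alcohol dehydrogenase gene, had 3, 2 and 2 counts at day 0 and 43, 50 and 77 at day 4, a ratio of 24.5 (95% exact binomial interval 11.6 to 61.9, counting error only). Slc7a11, the cystine importer, had 6, 3 and 3 counts and then 99, 98 and 71 (ratio 22.5, 12.7 to 44.2), and Krtdap had 17 counts in all and then 207 (12.3, 7.49 to 21.5). All 3 had under 10 counts in each day 0 library and entered the test only through day 4, so their rise is given as a value, not as support for a pattern. The largest falls were the noncoding genes Gm26825, with 196 counts in all and then 19, Gm17300, with 475 and then 54, and Gm26582, with 330 and then 44. Gm26825 had under 10 counts in each day 4 library, and Gm17300 and Gm26582 in at least 1. Their falls too are given as values, not as support for a pattern. Gm17300 (chr4:132351772-132353382) overlaps Snhg3 and Rcc1 on the opposite strand and Gm26582 overlaps G3bp2, also on the opposite strand, so their levels are uncertain.

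Targets of ATF4 rose broadly. ATF4 is the transcription factor of the integrated stress response, in which phosphorylation of the initiation factor eIF2 lowers translation in general while Atf4 mRNA is translated more; its targets import and make amino acids and include regulators that end the response. Of 37 tested targets 30 rose and 4 fell, against 20.8% and 19.3% of all genes, with a median log2 change of 0.68, and 14 of them were higher and 21 lower by ERCC scaling (ERCC median -0.42). Their summed level went from 2731 to 2824 CPM at day 0 to 4139 to 4197 CPM at day 4.

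Atf4 itself (chr15:80255184-80257541) had 164, 159 and 167 CPM at day 0 and 440, 425 and 383 CPM at day 4 (log2 change 1.35, SE 0.05, adjusted p = 7.51e-16; by ERCC scaling 0.25). Trib3, a pseudokinase that restrains ATF4, went from 17.2, 19.6 and 19.9 CPM to 68.0, 68.1 and 67.5 CPM (1.85, SE 0.06, adjusted p = 2.16e-16). Slc7a11, also a target, had under 10 counts in each day 0 library, and without it 29 of 36 targets rose and 4 fell (median 0.68). Ifrd1, whose mRNA carries an upstream open reading frame, went from 99.0, 94.4 and 105 CPM to 225, 234 and 199 CPM (1.14, SE 0.06, adjusted p = 9.83e-14), and by ERCC scaling it did not differ (0.04). The 4 members that fell were the amino acid synthesis genes Pycr1 (-0.71), Cbs (-0.69) and Psph (-0.20), which was not called without replicate 2 or 3 of day 0 (-0.17 and -0.18) or replicate 3 of day 4 (-0.14), and the cationic amino acid transporter gene Slc7a3 (-0.27).

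Some of these promoters hold the letters of a CCAAT-enhancer binding protein and ATF response element. In RefSeq promoter windows of GRCm38.p6 (250 bases before to 50 after the start), TGATGNAAN was searched on both strands, and it occurred in 10 of the 32 list members with a window (31.2%), in 2.7% of 11180 tested genes and in 4.5% of all 27025 genes. The sequences below show the match in capitals within its surroundings for genes named here.
Chac1 (chr2:119351028-119351076, minus strand): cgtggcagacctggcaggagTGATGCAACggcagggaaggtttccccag
Atf3 (chr1:191183416-191183464, plus strand): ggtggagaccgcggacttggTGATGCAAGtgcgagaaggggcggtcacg
Trib3 (chr2:152344019-152344067, plus strand): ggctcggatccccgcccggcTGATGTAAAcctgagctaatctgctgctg
Slc7a11 (chr3:50443651-50443699, minus strand): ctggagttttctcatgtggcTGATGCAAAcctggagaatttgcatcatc
Pycr1 (chr11:120643823-120643871, minus strand): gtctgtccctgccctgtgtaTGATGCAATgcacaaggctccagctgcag
Chac1, Atf3 and Trib3 rose and Pycr1 fell, so the genes shown with the match moved both ways. Slc7a11 had under 10 counts in each day 0 library, so its rise is a value only. Directions of the other members with the match are not given here. A match is a description of letters, not of bound factor. The list was made of genes held to be ATF4 targets, so its larger share of matches does not bear on day 4.

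The cytosolic aminoacyl-tRNA synthetases, which load amino acids onto tRNAs and many of which answer to ATF4, rose by smaller amounts. Of 20 members 11 rose and 0 fell, with a median of 0.14; Cars (0.47), Aars (0.42), Nars (0.39) and Yars (0.34) had the smallest adjusted p, and all 20 were lower by ERCC scaling. Where a list had 0 calls in a direction by edgeR, here and below, 1 member each of the synthetases, replication-dependent histone genes, YAP targets and TOP factors and 0 members of the other lists had an unadjusted p below 0.05 in that direction, and DESeq2 called 1 synthetase lower and 0 members otherwise. Aars went from 821, 840 and 824 CPM to 1132, 1086 and 1110 CPM, without overlap.

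Chaperones and folding enzymes of the endoplasmic reticulum (ER), which rise when unfolded protein gathers there, did not move together. Of 25 members 4 rose and 8 fell (median -0.04). Herpud1, part of ER-associated degradation and also an ATF4 target, rose (1.07), as did the sensor Atf6 (0.44). The luminal chaperone Hspa5, known as BiP, fell from 841, 765 and 881 CPM to 640, 632 and 597 CPM (-0.41, SE 0.05, adjusted p = 5.57e-07), and Manf (-0.42) and Calr (-0.23) fell with it. Pdia4 was not called (log2 change -0.04, SE 0.05, adjusted p = 0.585). Among cytosolic heat shock genes 4 of 16 rose and 5 fell (median -0.02), and among targets of NRF2, the oxidative stress factor, 6 of 19 rose and 2 fell (median -0.00, with Slc7a11 on both lists).

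Targets of the tumor suppressor p53 rose in part. Of 28 tested, 18 rose and 2 fell, against 20.8% and 19.3% of all genes, with a median of 0.29, while by ERCC scaling 25 were lower. The cyclin-dependent kinase inhibitor Cdkn1a went from 11.1, 14.2 and 11.4 CPM to 29.3, 28.8 and 31.3 CPM (1.29, SE 0.08, adjusted p = 1.12e-11), and the p53 ubiquitin ligase Mdm2 from 219, 226 and 202 CPM to 387, 391.6 and 334 CPM (0.78). The membrane protein gene Perp (0.98) and the kinase gene Plk2 (1.06) rose as well, and Sesn1 (-0.38) and Ei24 (-0.16) fell.

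Apoptosis regulators chosen for AVEN's known role had 6 of 22 higher and 6 lower (median -0.03), near the 20.8% and 19.3% of all genes. Among the rises, Bcl2l11 (0.45) and Hrk (1.19) promote cell death, Bcl2l1 (0.39), which encodes BCL-XL, opposes it, and Ctsd (0.55) encodes a lysosomal protease. Among the falls, Bok (-0.57) and Bmf (-0.62) promote death and Bcl2l2 (-0.59) opposes it. Of 36 lysosome and autophagy genes 15 rose and 6 fell (median 0.09), led by the autophagy receptor Sqstm1 (0.71), Ctsd, the GTPase gene Rragd (0.57) and the membrane protein gene Lamp1 (0.41). Sqstm1 went from 273, 288 and 288 CPM to 471, 456 and 466 CPM.

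Genes of the cytoskeleton and cell surface rose most consistently of the larger lists. Of 32 S100, annexin and cytoskeletal genes 29 rose and 0 fell, with a median of 0.92 (28 of 31 and 0.88 without S100a3, which had 2 counts in all at day 0 and is named for that after its values were seen), and 11 were higher and 14 lower by ERCC scaling. Their sum went from 2250 to 2348 CPM to 4194 to 4468 CPM. The giant scaffold protein gene Ahnak, the most abundant of those named, had 437, 457 and 385 CPM at day 0 and 1388, 1292 and 1293 CPM at day 4 (1.63, SE 0.05, adjusted p = 1.58e-16). The keratin pair of simple epithelia rose in parallel, Krt18 from 44.0, 44.3 and 43.7 CPM to 142, 121 and 125 CPM (1.55) and Krt8 from 30.4, 30.0 and 32.2 CPM to 92.2, 79.2 and 84.3 CPM (1.47).

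YAP, a coactivator that responds to cell shape and density, has well-known targets among the matricellular genes. Of 22 tested 16 rose and 0 fell (median 0.44; 2 higher and 16 lower by ERCC scaling). Ccn1 went from 33.5, 33.7 and 28.0 CPM to 160, 149 and 146 CPM, Ccn2 rose by 1.49, and the YAP-binding or pathway genes Amotl2 (1.18) and Ajuba (0.43) rose less. Of 29 immediate early and ERK feedback genes 17 rose and 2 fell (median 0.27), with Klf6 (1.35), Jun (1.36), the phosphatase Dusp1 (1.08) and Fosl2 (1.51) up. The 2 that fell, Spry4 (-0.40) and Dusp6 (-0.24), are feedback inhibitors of FGF and ERK signaling. Of 20 NF-kB pathway genes 11 rose and 3 fell (median 0.27).

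The cells kept the markers of mESCs at a lower summed level. The 6 markers of that identity summed to 2420 to 2540 CPM of total gene counts at day 0 and 2020 to 2100 at day 4. Pou5f1, the pluripotency factor OCT4, fell by 0.20 and Nanog by 0.33 on the log2 scale, and Sox2 was not called (0.04, adjusted p = 0.472). By total gene counts, Esrrb had 408 to 440 CPM at day 0 and 272 to 315 at day 4. Zfp42 had 421 to 432 and then 338 to 384, and Klf4 89.1 to 94.9 and then 73.8 to 80.3. Of 30 naive pluripotency genes 18 fell and 5 rose, with a median of -0.20. Fgf4, the ligand that drives exit from the naive state, went from 176, 171 and 175 CPM to 94.0, 94.2 and 86.3 CPM (-0.93, SE 0.05, adjusted p = 2.98e-13), and Gbx2 (-1.16), the DNA demethylase Tet2 (-0.77) and Jam2 (-0.69) fell as well. Pecam1 (1.29), Spp1 (0.68), Fbxo15 (0.59) and Klf5 (0.48) of the same list rose.

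Genes of the formative and primed states, which follow the naive state, did not take its place: 7 of 25 rose and 10 fell (median -0.10). Zic2 went from 11.5, 13.2 and 12.6 CPM to 4.38, 4.73 and 4.84 CPM (-1.42), with Zic5 (-1.19) and Tcf15 (-0.99) lower and the DNA methylation cofactor Dnmt3l (0.98) and Cd24a (0.57) higher. Of 18 Nodal pathway genes 7 rose and 7 fell (median -0.05), and of 16 Wnt feedback and target genes 6 rose and 3 fell (median 0.10).

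Apart from the neural set, the fixed markers of other cell types were low, and several markers moved with the day. Of 9 tested trophoblast markers 8 rose and 0 fell (median 1.25; 6 of 7 and 0.78 without those under 10 counts in a day 0 library), including Krt7 (1.69), Tfap2c (0.53), Gata3 (2.31) and Ascl2 (1.64); the 4 markers fixed for this check summed to 1.02 to 1.59 and then 3.86 to 4.72 CPM of total gene counts. Of 7 tested fibroblast and feeder markers 4 rose and 0 fell (3 of 5 without those under 10 counts in a library of either day), and their 6 fixed markers summed to 2.27 to 2.79 and then 5.26 to 6.79, with Postn and Lum at 0 in all 3 day 0 libraries. Of 6 neural progenitor markers 3 rose and 2 fell. Nes (1.45) rose, and Sox1 fell from 13.3, 15.6 and 13.7 CPM to 2.75, 3.84 and 3.69 CPM (-2.05). The 4 fixed neural markers summed to 123 to 133 and then 106 to 110, with Neurog2 at 0 in all day 0 libraries. The 6 tested members together went the other way, from 187 to 197 CPM to 262 to 274 CPM. Mesoderm and streak genes had 3 of 6 higher and 0 lower (1 of 3 without those under 10 counts in a library of either day), with fixed markers at 1.96 to 2.47 and then 2.24 to 3.02, and the 6 fixed primitive endoderm markers stayed at 13 to 13.7 and then 13.1 to 14. The part of cells of other types in the gene groups above was not tested.

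In the list of primitive endoderm and basement membrane genes 10 of 24 rose and 2 fell (median 0.18), and those that rose were mostly matrix and endocytic genes. The collagen IV genes Col4a1 and Col4a2 rose by 1.04 and 1.12, the matrix protein gene Sparc by 0.83 and the endocytic receptor gene Lrp2, or megalin, by 1.10, whereas its partner Cubn fell (-0.97). Lrp2 went from 150, 147 and 140 CPM to 322, 306 and 311 CPM, without overlap. By ERCC scaling these 4 rises came to -0.06, 0.02, -0.27 and 0.00.

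Germline genes that DNA methylation silences in other cells rose in 18 of 23 cases and fell in 0 (median 0.62; 17 of 21 without those under 10 counts in a day 0 library), led by Rhox6 (1.44), Taf7l (1.68), Tex19.1 (0.64) and the synaptonemal complex gene Sycp1 (1.11). Of 25 imprinted protein-coding genes 15 rose and 1 fell (median 0.33), with Peg10 going from 147, 138 and 140 CPM to 341, 349 and 374 CPM (1.33, SE 0.05, adjusted p = 4.95e-16) and Slc38a4 (0.76), Plagl1 (1.17) and Cdkn1c (0.90) also higher. The imprinted noncoding RNA H19 rose from under 1 CPM (1.46). Of 36 DNA methylation and heterochromatin genes 6 rose and 11 fell (median -0.06): Tet2, Tet1 (-0.36), the methyltransferase Dnmt3a (-0.49) and Zfp57 (-0.78), which protects imprints, fell, and Dnmt3l rose. Of 343 zinc finger protein genes 29 rose and 103 fell (median -0.10).

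Genes of the two-cell-like state, a rare state of mESCs, were nearly silent. Of 23 listed, 8 had enough counts to be tested and these 8 were higher, but 6 of them had under 10 counts in a day 0 library and passed the filter by way of day 4, so the count is no support. Zscan4d had 0.37, 0.43 and 0.35 CPM and then 3.34, 3.38 and 2.94 CPM (3.05), and Zscan4a (2.23), Zscan4c (2.48) and Arg2 (2.12) stood between 1.14 and 2.43 CPM at day 4. Members of the Zscan4 cluster are near-identical copies, so their separate levels are uncertain.

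Replication-dependent histone genes, whose mRNAs end in a stem-loop instead of a poly(A) tail and are made in S phase, rose in 38 of 61 cases and fell in 0, around a median of 0.28, whereas by ERCC scaling 3 were higher and 54 lower. Their sum went from 6032 to 6901 CPM to 8916 to 10055 CPM. Hist1h1a had 958, 981 and 1004 CPM at day 0 and 2160, 2007 and 1975 CPM at day 4 (1.06, SE 0.05, adjusted p = 7.82e-15), and Hist2h4 (1.37) and Hist1h2ba (1.45) rose as well. Replacement histone genes, which are polyadenylated, had 2 of 10 higher, led by H3f3b (0.55), and 4 lower, led by H1f0 (-0.69). Of 18 factors that process or degrade histone mRNA 3 rose and 4 fell (median -0.07).

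The DNA replication genes did not rise with the histones. Of 38 replication and S-phase genes 4 rose and 17 fell (median -0.12), with Ccne1 (-0.41), Rrm1 (-0.29) and Cdc6 (-0.35) among the falls. Of 34 mitosis and kinetochore genes 4 rose and 8 fell (median 0.01), beside 20.8% and 19.3% of all genes.

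The RNA decay machinery itself shifted little. The SKI partners Ttc37 and Wdr61 fell by 0.27 (adjusted p = 8.33e-05) and 0.20 (adjusted p = 0.00441) on the log2 scale, and Focad was not called (-0.02). Of 15 exosome subunits and helicases 1 rose, Exosc10 (0.26), and 5 fell, including Exosc7 (-0.29), with none changed beyond 0.29 in size. Of 16 decapping and XRN1 pathway genes 1 rose and 3 fell, and of 18 nonsense-mediated decay factors 6 rose, led by the helicase Upf1 (0.35), and 2 fell. Ribosome rescue and collision genes had 4 of 22 higher and 6 lower (median -0.04), beside 20.8% and 19.3% of all genes. Of 38 genes of mRNA-destabilizing and stabilizing proteins 7 rose and 9 fell; the endonuclease gene Zc3h12a, or regnase-1, had the largest fall (-0.82) and Igf2bp2 fell by 0.64 on the log2 scale.

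The translation apparatus moved by little as well. Of 86 cytosolic ribosomal protein genes 15 rose and 3 fell, both smaller shares than among all genes, with a median of 0.06. Rpl3 stood apart, from 87.5, 92.5 and 82.2 CPM to 161, 149 and 148 CPM (0.80, SE 0.05, adjusted p = 1.77e-11), and hosts snoRNA genes in its introns. The testis-biased paralog Rpl10l rose by 0.72 on the log2 scale, to 10.6, 11.6 and 11.2 CPM, and reads shared with Rpl10 copies make it uncertain. Among translation factors with a terminal oligopyrimidine tract (TOP) 6 of 20 rose and 0 fell (median 0.07). Host genes of snoRNAs had 10 of 22 higher and 3 lower (median 0.08).

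Among called metabolic genes more were lower than higher. The share lower was 61.5% for cholesterol synthesis and 51.6% for glycolysis and hypoxia genes, against 19.3% of all genes. It was nearer that share for nuclear respiratory chain genes (33.3%) and mitochondrially encoded mRNAs (28.6%). Of 26 cholesterol synthesis genes 16 fell and 1 rose (median -0.27): Hmgcs1 went from 375, 352 and 369 CPM to 216, 232 and 219 CPM (-0.71, SE 0.05, adjusted p = 1.06e-11), Insig1 (-0.68), Acat2 (-0.56) and Nsdhl (-0.62) fell, and Sqle (0.25) rose. Of 31 glycolysis and hypoxia genes 16 fell and 5 rose (median -0.23), with Tpi1 (-0.72), Pdk1 (-0.62), Ldha (-0.51) and the lactate exporter gene Slc16a3 (-0.80) lower and Ddit4 (0.89), an mTOR inhibitor that ATF4 and p53 also induce, higher. Of 78 nuclear respiratory chain genes 26 fell and 5 rose (median -0.10), and of 7 tested mitochondrially encoded mRNAs 2 fell, with mt-Nd6, which overlaps mt-Nd5 on the opposite strand, at -1.05.

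Interferon response and RNA-sensing genes, examined because undegraded RNA can be sensed, showed no general rise: 1 of 23 tested was higher and 7 were lower (median -0.13). The chemokine gene Cxcl10 was the one called higher, but it had as few as 5 counts in a day 0 library and passed the filter by way of day 4; without it 0 of 22 were higher. It went from 0.17, 0.20 and 0.21 CPM to 0.63, 0.60 and 0.75 CPM. The adaptor Mavs (-0.53) and the transcription factors Irf9 (-0.53), Stat2 (-0.51) and Irf3 (-0.28) fell. Of 20 long noncoding RNAs 3 rose and 5 fell, Firre (-0.67) among them, and of 27 RNA-binding proteins of the SR, FET and SFPQ groups 9 rose and 2 fell (median 0.02). Of the 12 genes the study names for SKIV2L or AVEN, which are not independent evidence, 4 rose and 4 fell.

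**Figure D4:**
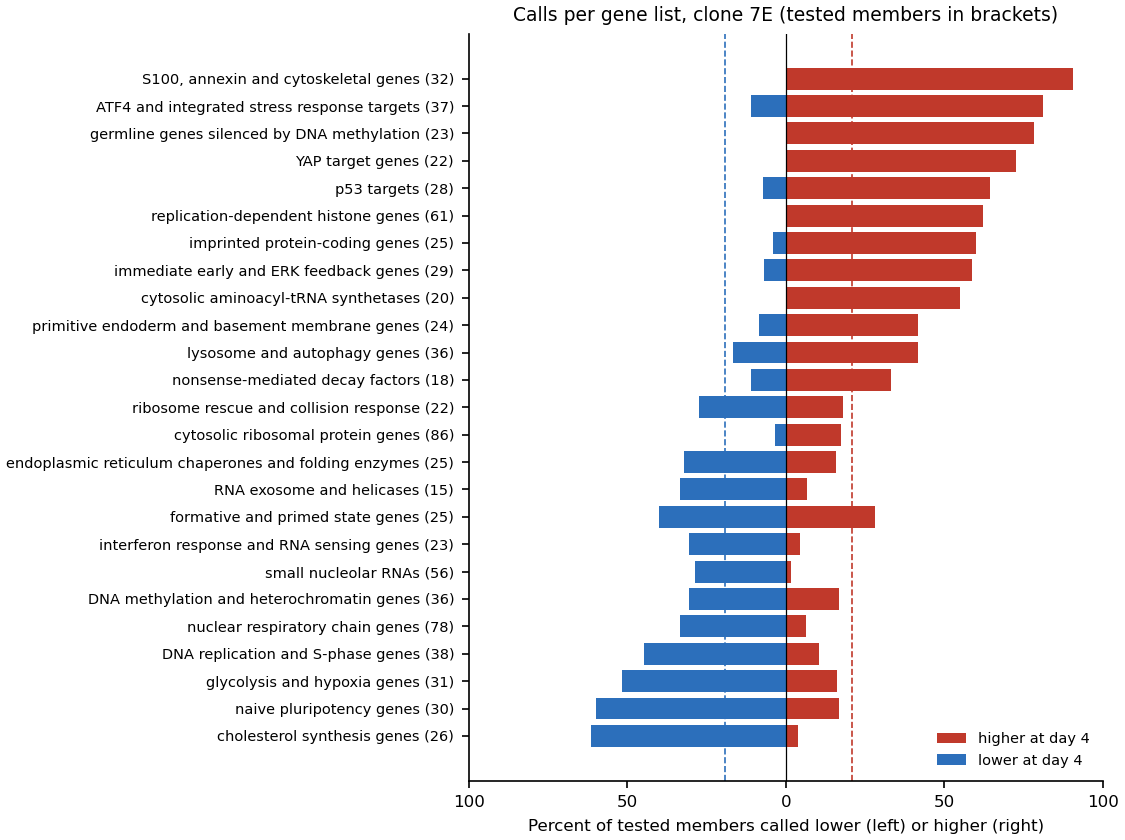
Percent of tested members called lower (left, blue) or higher (right, red) at day 4 by library-size scaling for 25 gene lists, with the number tested in brackets and dashed lines at the shares of all genes, 19.3% and 20.8%. S100, annexin and cytoskeletal genes and ATF4 targets lie farthest to the right and cholesterol synthesis and naive pluripotency genes farthest to the left; by ERCC scaling 11 of the former and 14 of the ATF4 targets stayed higher.

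The genes that moved were set beside the binding of decay factors, measured by crosslinking and analysis of cDNA (CRAC) in tagged lines and deposited as the authors' pooled value of relative binding per transcript. The median for SKIV2L was 0.292 for 1548 genes called higher, 0.246 for 1859 called lower and 0.268 for 3824 without a call. Of the 752 genes higher and 210 lower by over 2-fold, only 69 and 26 had such a value. For these the SKIV2L median was 0.306 (quartiles 0.154 to 0.433) and 0.147 (0.0922 to 0.186). The AVEN median was 0.316 and 0.164. The median for the nuclear exosome helicase MTR4 was 0.348 and 0.433, and that for the 5′ to 3′ exonuclease XRN1 0.267 and 0.388. Per the study's methods, the MTR4, SKIV2L and XRN1 values of a transcript sum to 1, so their shifts are not separate results. Between all genes called higher and all called lower the SKIV2L quartiles overlapped, at 0.19 to 0.42 and 0.161 to 0.382. These are descriptions across genes, which are not replicates.

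The same direction was seen in separate libraries of clone 7E treated with actinomycin D. Of the 3394 genes called higher, 90.1%, 91.3% and 87.1% were also higher at day 4 after 120, 240 and 360 min (mean log2 difference, no test), and of the 3158 called lower, 89.3%, 86.7% and 84.2% were lower. These libraries come from the same line and treatment. The lists differed in how the day difference held: for the replication-dependent histone genes its median went from 0.28 in mock to 2.08, 2.36 and 1.95 at the 3 times, and for the ATF4 targets from 0.68 to 0.28, 0.13 and -0.25. The S100, annexin and cytoskeletal genes stood at 0.85 in mock and at 0.76, 0.77 and 0.71, on a scale with 0.5 CPM added that lowers the mock value slightly.

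The response was then compared with that of clone 5F, the Aven-intact Skiv2l fl/fl line given the same course, in which Skiv2l mRNA did not fall. By the interaction of clone and day over 12 mock libraries, 1142 of 17187 genes (6.64%) had a larger day 4 minus day 0 difference in clone 7E and 910 (5.29%) a smaller one. The clones differ in Aven, in Skiv2l level before treatment and in whatever else 1 clone each brings, and these cannot be told apart. The largest positive differences at 10 CPM or more were Itga8 (difference 1.94, SE 0.13, adjusted p = 6.29e-10; 0.72 in clone 5F), Anxa1 (1.90), S100a6 (1.79), Fgfbp1 (1.76) and Atf3 (1.69). The largest negative ones were Ccdc107 (-1.53), Msi1 (-1.38), an RNA-binding protein gene, Fgf15 (-1.35), Nfkbid (-1.35), whose log2 change was 0.22 in clone 7E and 1.57 in clone 5F, and Rny3 (-1.34).

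By list, the S100, annexin and cytoskeletal genes had a median of 0.92 in clone 7E and 0.11 in clone 5F, with 25 members larger in clone 7E and 0 smaller, against 6.64% and 5.29% of all genes. The ATF4 targets had 0.68 and 0.38, with 24 larger and 1 smaller, and the p53 targets 0.29 and -0.04, with 16 larger and 1 smaller. Of the naive pluripotency genes 12 were smaller, that is, lower in clone 7E, and 2 larger. The replication-dependent histone genes went the other way, with 0.28 in clone 7E and 0.69 in clone 5F, 28 members smaller and 0 larger. In clone 5F 56 of the 61 were called higher and 0 lower. Some lists that fell in clone 7E fell in clone 5F too. There, 14 cholesterol synthesis genes were lower and 0 higher (median -0.17), and 12 glycolysis and hypoxia genes were lower and 2 higher (-0.15). For nuclear respiratory chain genes it was 23 and 2 (-0.1), and for DNA replication and S-phase genes 15 and 2 (-0.07). Over all 16333 genes the clone 5F median was -0.01. The share of all genes called in clone 5F is not given here, so the counts called there have no background beside them.

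**Figure D5:**
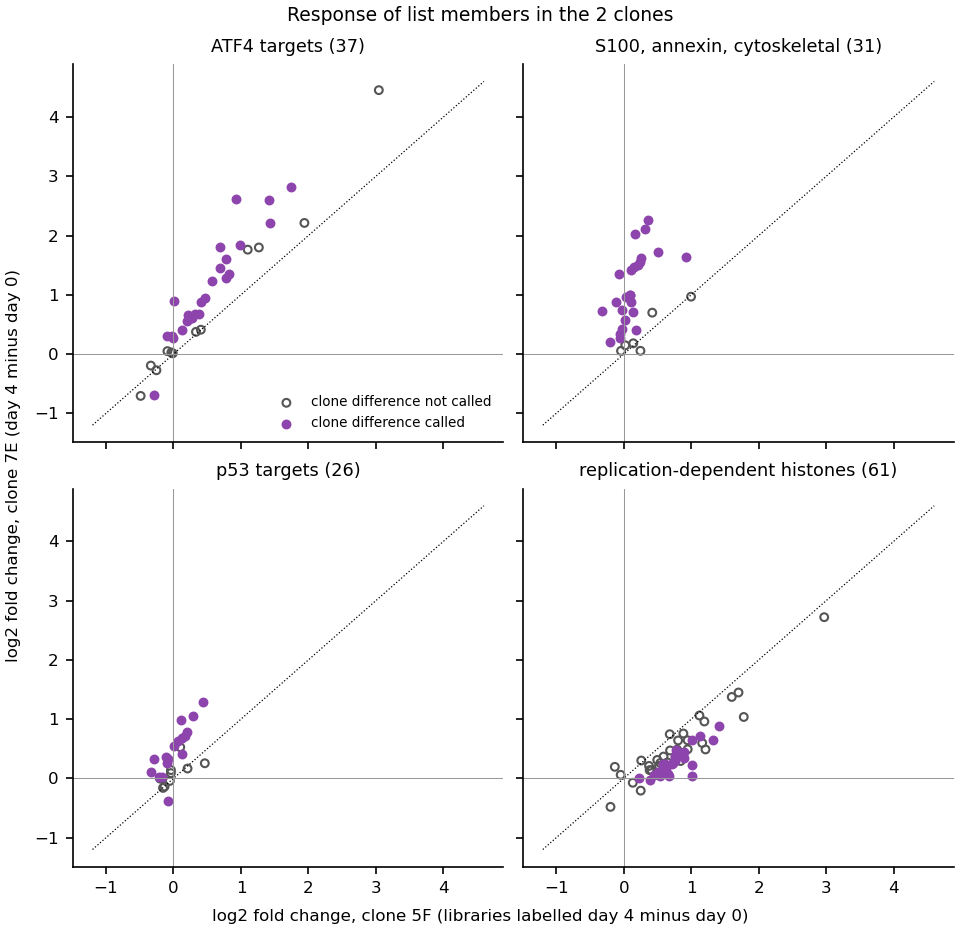
Log2 fold change of each member in clone 7E (vertical) against clone 5F, libraries labelled day 4 minus day 0 (horizontal), for 4 lists (members with values in both clones in brackets), filled where the difference between clones was called; the dotted diagonal marks equal response. S100, annexin and cytoskeletal genes stand above the diagonal near 0 in clone 5F, ATF4 targets above it along its length, and most histone genes on or below it.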

How the data were processed

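The values were counts per gene and per ERCC spike-in as deposited by the authors, who aligned rRNA-depleted single-end reads with STAR and kept uniquely placed reads (GRCm38, Gencode annotation). Gene symbols came from the Gencode annotation given here and matched 53275 of 53380 genes. CRAC binding was the authors' deposited ratio of pooled binding per transcript, listed with their deposited RPKM, which was not used in a comparison; the half-life file and the authors' own comparison columns were not used.

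Genes passing edgeR's expression filter were tested with the edgeR 4.0.16 quasi-likelihood test with Benjamini-Hochberg adjustment. Library-size scaling used median-of-ratios size factors (DESeq2 1.42.0), and ERCC scaling the summed counts of the 31 of 92 spike-ins with a mean over 50. The standard error is the log2 change divided by the square root of F. Values of the actinomycin D libraries used log2 of CPM with 0.5 added. On simulated data the test recovered 98% of 2-fold changes and 72% of changes of log2 0.5 for day 4 against day 0 over 16333 genes. For the difference between clones over 17187 genes it recovered 92% and 70%. Each simulation changed 100 genes at each size, up and down in equal number and only above 1 CPM. The real changes were more numerous and less balanced, so these rates may not hold for them.

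Members and the 49 gene lists were chosen with earlier results of these data known. Named genes were Skiv2l, Aven, Ifrd1, Atf4, Calr and Pdia4; the 12 largest called changes each way at 10 CPM or more whose groups did not overlap and whose sign held with each library left out; up to 4 list members each way with the smallest adjusted p; the 5 largest clone differences each way under the same filters; and the 3 largest changes each way from 1 to 10 CPM; not all genes that the rule allows are named. Focad and the stem cell markers Pou5f1, Sox2 and Nanog were named as list or marker members. The markers Esrrb, Zfp42 and Klf4 are given as levels only and are not counted among the named genes below. Alternatives were TMM and total-count scaling, DESeq2, limma-voom 3.58.1, other count filters, all 12 mock libraries in one fit, a replicate block, each library left out and, chosen after seeing the data, the share of the abundant RNA Gm26917 as a covariate. Depth was 28369645 to 31175268 gene counts per library; intervals cover counting error only, since reads carried no molecular identifiers.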

Additional observations from a re-analysis of the deposited data

Results flagged for a closer look

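The day 4 minus day 0 change of 117 named genes differed between clone 7E and clone 5F by the interaction of clone and day in edgeR (adjusted p below 0.05, Benjamini-Hochberg adjustment over 17187 genes, 12 mock libraries). Skiv2l mRNA did not fall in the libraries of clone 5F labelled day 4, and the clones differ in more than Aven, so the differences are given as values of the log2 change in clone 7E minus that in clone 5F. With 3 libraries in a group, no library could be tested as standing apart.

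Among the targeted gene and its pathway, the difference was called for Skiv2l (-1.31) and Focad (-0.23). Among the largest rises, the difference was called for Chac1 (1.07), Itga8 (1.94), Atf3 (1.69), Pla2g7 (1.61), Fgfbp1 (1.76), Anxa1 (1.90), Ccn1 (1.50), Rnf128 (1.23), Serpinb9b (1.51), S100a6 (1.79) and Wnt7b (1.62). Adh7 (3.54) and Krtdap (2.84) were called too, but both had under 10 counts in each day 0 library of clone 7E, so these are values only. Among the largest falls, the difference was called for Ccdc107 (-1.53), Fgf15 (-1.35), Rny1 (-0.95), Rny3 (-1.34), Gm25360 (-1.11), Gm25939 (-0.96), Fgf17 (-1.02), Sox21 (-0.90), Nfatc4 (-1.13), Ccnd2 (-0.96), Inhbb (-0.74), Gm26825 (-2.60), Gm17300 (-2.61) and Gm26582 (-2.17). Msi1 (-1.38) and Nfkbid (-1.35), also called, were named for their difference between clones, not for a fall. The log2 change of Nfkbid was positive in both clones. Among stress, tRNA synthetase and endoplasmic reticulum genes, the difference was called for Trib3 (0.86), Atf4 (0.53), Cbs (-0.41), Cars (0.23), Aars (0.27), Nars (0.36), Yars (0.20), Herpud1 (0.71), Atf6 (0.27) and Ddit4 (0.87). Among p53, apoptosis and lysosome genes, the difference was called for Perp (0.87), Plk2 (0.76), Cdkn1a (0.84), Mdm2 (0.58), Sesn1 (-0.30), Bcl2l11 (0.53), Bcl2l1 (0.23), Sqstm1 (0.44), Ctsd (0.50), Rragd (0.36) and Lamp1 (0.37). Among cytoskeletal, YAP and immediate early genes, the difference was called for Ahnak (0.71), Krt18 (1.32), Krt8 (1.32), Ccn2 (1.07), Amotl2 (0.78), Ajuba (0.28), Klf6 (1.04), Jun (0.72), Dusp1 (0.97), Fosl2 (1.42) and Spry4 (-0.32).

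Among pluripotency and formative state genes, the difference was called for Pecam1 (0.68), Spp1 (0.35), Fgf4 (-0.66), Gbx2 (-0.83), Tet2 (-0.60), Jam2 (-0.93), Dnmt3l (0.77), Cd24a (0.32), Tcf15 (-0.68), Zic2 (-1.64) and Zic5 (-1.35). Among endoderm, two-cell-like and lineage genes, the difference was called for Lrp2 (0.74), Col4a1 (1.15), Sparc (0.81), Col4a2 (1.05), Cubn (-0.39), Zscan4d (1.55), Zscan4a (1.18), Krt7 (1.43), Tfap2c (0.30), Gata3 (1.56), Ascl2 (1.55), Nes (0.85) and Sox1 (-2.19). Among germline, imprinted, histone and DNA methylation genes, the difference was called for Rhox6 (1.16), Taf7l (1.14), Tex19.1 (0.68), Sycp1 (0.57), Peg10 (0.91), Slc38a4 (0.43), Plagl1 (0.50), Cdkn1c (0.52), H1f0 (-0.46), Zfp57 (-0.53), Tet1 (-0.50), Dnmt3a (-0.43) and H19 (1.18). Among metabolic, cell cycle and interferon genes, the difference was called for Hmgcs1 (-0.21), Insig1 (-0.33), Sqle (0.22), Tpi1 (-0.38), Pdk1 (-0.31), Ldha (-0.26), Slc16a3 (-0.35), Ccne1 (-0.24), Stat2 (-0.42), Cxcl10 (2.18) and mt-Nd6 (-0.73). Among RNA-binding, ribosomal and noncoding genes, the difference was called for Rpl3 (-0.34), Snora23 (-1.23), Snora41 (-0.74), Zc3h12a (-0.99), Igf2bp2 (-0.52) and Firre (-0.45).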

How the results depend on the processing

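Scaling had by far the greatest effect. With ERCC scaling in place of library-size scaling the genes higher at day 4 went from 3394 to 258 and the genes lower from 3158 to 14716, the genes with a larger response in clone 7E went from 1142 to 52 and those with a smaller one from 910 to 14305; the drop in gene counts per spike-in is what separates these scalings. Requiring a change over 2-fold left 752 genes higher and 210 lower. Of 159 named genes 39 changed sign by ERCC scaling, with log2 changes for Nfkbid (-0.87), Cars (-0.63), Aars (-0.68), Nars (-0.71), Yars (-0.75), Herpud1 (-0.03), Atf6 (-0.66), Perp (-0.12), Plk2 (-0.04), Mdm2 (-0.32), Bcl2l11 (-0.65), Bcl2l1 (-0.71), Sqstm1 (-0.38), Ctsd (-0.55), Rragd (-0.53), Lamp1 (-0.69), Ajuba (-0.67), Dusp1 (-0.02), Spp1 (-0.42), Fbxo15 (-0.51), Klf5 (-0.62), Sox2 (-1.06), Dnmt3l (-0.12), Cd24a (-0.53), Lrp2 (-0.00), Col4a1 (-0.06), Sparc (-0.27), Tfap2c (-0.57), Tex19.1 (-0.46), Slc38a4 (-0.34), Cdkn1c (-0.20), Hist1h1a (-0.04), H3f3b (-0.55), Sqle (-0.85), Ddit4 (-0.21), Rpl3 (-0.30), Rpl10l (-0.38), Upf1 (-0.75) and Exosc10 (-0.84). A further 9 lost their call, Ifrd1 (0.04), Cdkn1a (0.19), Hrk (0.09), Amotl2 (0.08), Col4a2 (0.02), Sycp1 (0.01), Plagl1 (0.07), Cxcl10 (0.67) and H19 (0.37), and 3 gained one, Aven (-1.57), Focad (-1.12) and Pdia4 (-1.14).

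Under TMM and total-count scaling, DESeq2, limma-voom, both other count filters, the fit of 12 libraries and the Gm26917 covariate chosen after seeing the data, the counts of genes higher and lower stayed within 1.5 times the values reported, and DESeq2 shared 2972 of the genes higher and 2695 of those lower. No named gene changed sign under these. Nfkbid (log2 change 0.22) lost its call by total-count scaling (0.18) and with any of 4 of the 6 libraries left out (0.21 to 0.23), and Aven gained one with the covariate, in the fit of 12 libraries and without the third library of day 4. With each library left out in turn, the genes higher numbered 2866 to 3396 and the genes lower 2533 to 3137, by ERCC scaling 224 to 261 and 14359 to 14593, and the genes with a larger or smaller response in clone 7E 866 to 1204 and 645 to 1139. The log2 change in gene counts per ERCC count was -1.07 to -1.05 and that of Skiv2l -1.37 to -1.27.

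Libraries with the same replicate number did not deviate together: over 7845 genes the correlations of their deviations were -0.10, -0.52 and -0.21 for numbers 1, 2 and 3, so the numbers were not treated as pairs. A replicate block gave 3166 genes higher and 2848 lower, 3136 and 2819 of them shared with the fit without it, 255 and 14682 by ERCC scaling, and 1067 and 858 for the difference between clones; it changed no call of a named gene. Depth limits the 1092 tested genes under 10 counts in a day 0 library and the 903 in a day 4 library.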
